A study of Homo sapiens and Mus musculus with 6 samples.

Results

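The promoters of 9 Nkx homeobox genes were followed through promoter capture Hi-C: Nkx1-2, Nkx2-1, Nkx2-2, Nkx2-3, Nkx2-5, Nkx2-9, Nkx3-2, Nkx6-1 and Nkx6-2. A call was a captured HindIII restriction fragment (the bait) listed with another fragment (the other end) at a CHiCAGO score of at least 5. A pair of promoters that scored so from both ends gave a call from each. A call was taken as a member call when a promoter name on either fragment gave one of these symbols. In mouse embryonic stem cells (mESCs) 154 of 101841 calls (0.151%) met this rule, and 8 of the 9 genes had at least 1 call. The list names 17014 symbols, each with a call, so it gives no share of all captured promoters to set beside these 8. The same symbols in capitals had 31 of 92929 calls in GM12878 cells. Of the 154 mESC calls, 118 were listed from an Nkx promoter as the bait and 36 from the bait of a partner. Only 8 promoter pairs were called from the partner's bait alone, and the rest of the 36 repeat pairs called from an Nkx bait as well. Together the 154 calls described 125 fragment pairs.

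The mouse cells were J1 embryonic stem cells of the 129S4/SvJae strain, grown on irradiated embryonic fibroblasts from which they were separated by passaging before fixation, with 2 biological replicates. GM12878 is a human B-lymphoblastoid line, made by Epstein-Barr virus transformation and studied with 3 biological replicates. The labels give no treatment or genotype change for either, and 1 Hi-C library without capture was made from mESCs of the same strain. The replicates of a cell type were called together, so each cell type is 1 set of calls: a read number is the rounded, scaled mean over its replicates, no spread between replicates can be given, and no test was made. Shares are given with Wilson 95% intervals, which cover counting error only and are too narrow where calls share a bait or lie side by side. Contacts and not transcripts were measured, so the identity of the cells was not checked from markers.

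NK homeobox genes encode transcription factors that bind DNA through a homeodomain and that set out organs and neural territories in the embryo. The NK2 class holds regulators of thyroid, lung, forebrain, gut, spleen and heart, the NK3 class a regulator of cartilage in the spine and jaw, and the NK6 class regulators of ventral neural progenitors and pancreatic endocrine cells. In pluripotent cells such developmental regulators are as a rule silent, and many of their CpG-rich promoters are bound by Polycomb complexes, which were not measured here. A score compares the reads of a fragment pair with those that distance and technical noise would give, on a scale on which 5 was the threshold of the deposited lists.

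The 200 bases upstream of the annotated start are shown for Nkx2-1, Nkx2-9, Nkx2-3 and Nkx6-1 and for the developmental gene promoters called with them at the highest scores (mouse build mm9, GENCODE M1 starts, written in the direction of transcription), with CpG dinucleotides and any HindIII site in capitals.
Nkx2-1 (chr12:57637896-57638095, minus strand): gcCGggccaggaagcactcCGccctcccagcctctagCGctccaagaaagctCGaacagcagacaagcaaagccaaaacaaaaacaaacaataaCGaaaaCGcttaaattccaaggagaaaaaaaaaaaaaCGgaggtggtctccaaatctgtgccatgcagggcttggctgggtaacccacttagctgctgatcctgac
Nkx2-9 (chr12:57714272-57714471, minus strand): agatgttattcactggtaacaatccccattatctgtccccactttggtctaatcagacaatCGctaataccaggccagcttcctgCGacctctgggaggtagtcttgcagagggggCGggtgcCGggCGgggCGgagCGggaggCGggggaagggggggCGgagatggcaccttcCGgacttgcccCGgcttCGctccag
Pax9 (chr12:57792554-57792753, plus strand): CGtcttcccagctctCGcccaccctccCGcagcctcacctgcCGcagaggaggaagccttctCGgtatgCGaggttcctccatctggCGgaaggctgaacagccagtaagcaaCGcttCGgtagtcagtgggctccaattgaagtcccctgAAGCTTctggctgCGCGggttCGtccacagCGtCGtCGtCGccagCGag
Foxa1 (chr12:58647109-58647308, minus strand): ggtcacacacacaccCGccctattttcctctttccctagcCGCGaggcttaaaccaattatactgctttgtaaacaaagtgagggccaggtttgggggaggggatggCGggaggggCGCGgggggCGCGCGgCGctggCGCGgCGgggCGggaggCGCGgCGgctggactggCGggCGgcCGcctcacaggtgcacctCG
Nkx2-3 (chr19:43686615-43686814, plus strand): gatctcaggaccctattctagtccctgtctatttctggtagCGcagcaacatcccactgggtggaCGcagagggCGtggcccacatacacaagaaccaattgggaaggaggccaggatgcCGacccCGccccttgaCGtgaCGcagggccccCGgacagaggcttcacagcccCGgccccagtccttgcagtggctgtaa
Pax2 (chr19:44830339-44830538, plus strand): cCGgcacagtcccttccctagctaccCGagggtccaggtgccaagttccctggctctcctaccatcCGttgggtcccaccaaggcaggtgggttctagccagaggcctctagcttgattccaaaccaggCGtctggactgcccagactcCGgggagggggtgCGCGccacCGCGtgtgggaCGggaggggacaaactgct
Nkx6-1 (chr5:102094246-102094445, minus strand): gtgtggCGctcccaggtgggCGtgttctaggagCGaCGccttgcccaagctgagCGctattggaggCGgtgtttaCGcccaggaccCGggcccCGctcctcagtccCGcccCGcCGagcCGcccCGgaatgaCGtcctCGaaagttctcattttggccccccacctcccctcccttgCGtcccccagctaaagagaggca
Gsx2 (chr5:75471289-75471488, plus strand): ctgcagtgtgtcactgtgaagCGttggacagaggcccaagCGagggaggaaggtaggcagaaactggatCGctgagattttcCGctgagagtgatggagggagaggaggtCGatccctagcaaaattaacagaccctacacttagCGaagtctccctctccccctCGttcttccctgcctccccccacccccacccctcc
Nkx2-1 held 7 CpG in this window, Nkx2-9 held 12, Nkx2-3 held 9 and Nkx6-1 held 17. Of the partners, Pax9 held 17, Foxa1 21, Pax2 10 and Gsx2 7. Over the 9 Nkx genes the count ran from 6 to 25 with a median of 9, against a median of 7 over 7691 protein-coding starts on mouse chromosomes 2, 5, 7, 12, 17 and 19, so dense CpG was not shared by all members. The letters AAGTG, the core that NK2 homeodomains bind, were found on either strand in 4 of the 9 windows and in 33.5% of the 7691. The HindIII site in the Pax9 window lies just before the Pax9 start. The start and the bases between it and the site fall on the Pax9 fragment, and the bases upstream of the site on its neighbour.

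The method resolves contacts to such fragments, and the sites that bound the fragments of the highest-scoring pair are shown because they set what a call can distinguish (plus strand, HindIII site in capitals).
Nkx2-1 fragment, first base (chr12:57636364-57636409): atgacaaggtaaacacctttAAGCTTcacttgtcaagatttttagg
Nkx2-1 fragment, last base (chr12:57638903-57638948): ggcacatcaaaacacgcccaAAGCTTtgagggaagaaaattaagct
Pax9 fragment, first base (chr12:57792685-57792730): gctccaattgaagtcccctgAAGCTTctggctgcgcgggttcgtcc
Pax9 fragment, last base (chr12:57796337-57796382): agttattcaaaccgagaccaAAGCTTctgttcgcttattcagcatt
The Nkx2-1 fragment was 2539 bases long, and those of the other 7 genes were between 2922 and 9037 bases. All 52640 mESC fragments in the list began and ended at a HindIII site of mm9.

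On mouse chromosome 12, Nkx2-1, which directs thyroid, lung and ventral forebrain development, and Nkx2-9, expressed in the ventral neural tube, formed with Pax9 and Foxa1 a set of promoters that were called with each other in every combination. The Nkx2-1 fragment (chr12:57636385-57638923) had 34 calls, to 26 fragments. Its pair with Pax9, a paired-box regulator of teeth and pharyngeal pouches at 157 kb, held 129 reads and scored 131.19 from Nkx2-1, the highest score of all 154 calls. From the Pax9 bait the same 129 reads scored 34.39. Only 0.191% of the 16265 mESC baits had a call that scored as high as 131.19.

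Foxa1, a pioneer factor of endoderm and of the lung, lay 1.01 Mb from Nkx2-1. This pair held 27 reads and scored 48.66 from Nkx2-1 and 57.43 from Foxa1. Nkx2-9 lay 75.9 kb from Nkx2-1, and their pair held 77 reads and scored 35.12 from either bait. It was the only pair that joined one member to another. Slc25a21, which encodes a mitochondrial carrier, lay 662 kb away with 21 reads and scores of 28.21 and 17.90. Farther out, Nkx2-1 was called with the brain factor Npas3 at 3.29 Mb (7 reads, 12.81 and 8.25). Gm9804 at 7.13 Mb (4 reads, 5.79 and 5.91) and the somatostatin receptor gene Sstr1 at 1.68 Mb (5 reads, 5.23, from Nkx2-1 only) were also called. Mbip, 190 kb away on the other side, was called from its own bait only (5 reads, 7.48). Between Nkx2-1 and Npas3 stood 23 other baits of the list, of which 1 was called with Nkx2-1.

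The fragments around a called promoter were often called as well. Around Pax9, 6 fragments over 31.4 kb were called with Nkx2-1, among them the immediate neighbours of the Pax9 fragment, with 48 reads (53.98) on the upstream side and 50 reads (58.12) on the downstream side. The Pax9 fragment itself stood above both. Around Foxa1, 4 fragments over 15.4 kb were called from Nkx2-1, the 3 without a promoter name with 18, 9 and 21 reads and scores of 35.74, 14.35 and 43.42. The fragment beside Npas3 held 5 reads (8.92). Of the 11 groups of fragments called with Nkx2-1, in which neighbours lie within 10 kb, 2 held no promoter name. One of them was a group of 3 fragments about 11.5 kb from Nkx2-1 itself, with 34 to 54 reads but scores of 5.36 to 6.21.

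The Nkx2-9 fragment (chr12:57712098-57715019) had 29 calls, to 25 fragments. Pax9 at 81.0 kb held 84 reads and scored 34.09 from Nkx2-9 and 43.03 from Pax9. Foxa1 at 931 kb held 21 reads and scored 30.23 and 41.08. Both were also called with Nkx2-1. Slc25a21 at 586 kb held 17 reads (17 and 12.12), and Npas3 at 3.36 Mb held 5 reads (5.94, from Nkx2-9 only). Nkx2-9 was also called with 11 fragments over 27.5 kb at Nkx2-1, and with 7 over 22.4 kb at Foxa1. The fragment that adjoins the Nkx2-1 bait on the side of its gene body, in Nkx2-1 exons, scored 34.09 with 53 reads, and the bait itself 35.12 with 77. Nkx2-1 and Nkx2-9 shared 14 partner fragments, 53.8% of those of Nkx2-1 and 56% of those of Nkx2-9. The baits lie 75.9 kb apart, and the part of this closeness in the overlap was not tested.

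**Figure D1:**
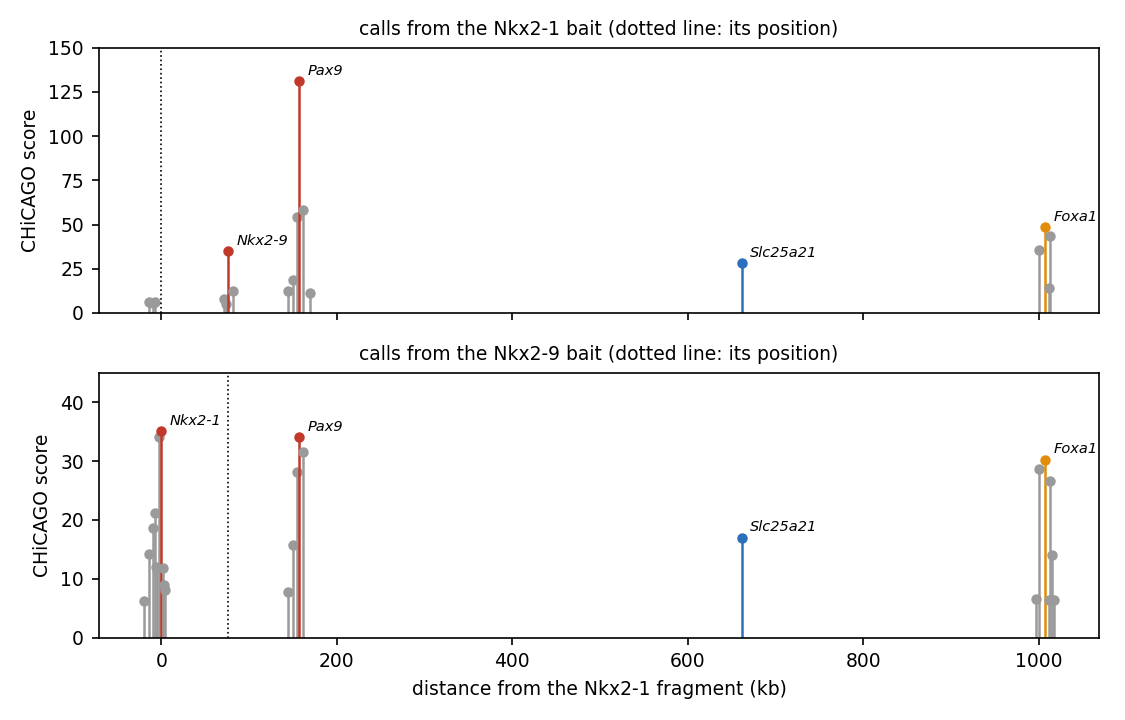
Calls from the Nkx2-1 bait (upper panel) and the Nkx2-9 bait (lower panel) within about 1 Mb, with the distance from the Nkx2-1 fragment in kb on the horizontal axis and the CHiCAGO score on the vertical axis (scales differ between panels). Red marks homeobox or Pax promoters, orange other developmental transcription factors, blue other promoters and grey fragments without a promoter name, and both baits have their calls at Pax9, Slc25a21 and Foxa1, with Pax9 reaching 131.19 from Nkx2-1 and 34.09 from Nkx2-9.

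On chromosome 2, the fragment named for Nkx2-2, a regulator of ventral neural progenitors and pancreatic endocrine cells, had 17 calls, to 11 fragments, and all of them lay within 974.4 kb. Pax1, a paired-box regulator of the vertebral column, led at 165 kb with 65 reads and scores of 56.85 from Nkx2-2 and 23.49 from Pax1. The neighbouring AI646519 promoter held 41 reads at 170 kb (35.73 and 28.79). Foxa2, the pioneer factor of floor plate and endoderm, lay at 852 kb with 12 reads and scored 16.00 and 16.60. On the other side stood Nkx2-4, the closest relative of Nkx2-1, at 110 kb (24 reads, 13.50 and 10.16), Gm14114 at 354 kb (11 reads, 8.91 and 7.02) and Insm1, a zinc-finger regulator of endocrine cells, at 972 kb (6 reads, 5.86 and 6.74). All 6 promoter pairs of Nkx2-2 were called from both ends.

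The Nkx2-2 bait (chr2:147017970-147023200) holds the starts of the processed transcripts Nkx2-2-003 and Nkx2-2-004. The protein-coding start at 147012138 lies 5.83 kb from the edge of that bait, on a fragment without a promoter name in the list (chr2:147008878-147012846). This fragment appeared in 8 calls, each from the bait of another promoter. Pax1 reached it with 80 reads (34.89), AI646519 with 58 (59.70), Nkx2-4 with 39 (26.96), Foxa2 with 16 (29.52) and Insm1 with 13 (25.01). The fragment of the coding start had more reads than the named bait with each of these 5 promoters. It was also called from Gm14114 (21 reads, 23.09), Xrn2 (14 reads, 8.33) and Rtn4rl2, 62286 kb away (3 reads, 5.84). The other counts and distances given for Nkx2-2 are those of the named bait.

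Nkx2-3, a regulator of spleen and gut mesenchyme on chromosome 19 (chr19:43686359-43692533), had 19 calls, to 15 fragments, and 15 of the calls went beyond 1 Mb. Pax2, a paired-box regulator of kidney and midbrain, led at 1.14 Mb with 30 reads and scores of 53.86 from Nkx2-3 and 34.82 from Pax2. A bait named uce at 1.61 Mb, which holds the start of Lbx1, a homeobox regulator of migrating muscle precursors, held 13 reads (23.19 and 18.50). Tlx1, a homeobox gene needed for spleen formation, at 1.53 Mb held 10 reads (14.43 and 11.21). 1700039E22Rik, whose fragment overlaps Pax2 exons, at 1.22 Mb held 11 reads (14.74 and 7.68). The growth factor gene Fgf8 at 2.13 Mb held 7 reads (9.58, from Nkx2-3 only). Pax2, Tlx1, the Lbx1 fragment and Fgf8 thus all lay on 1 side of Nkx2-3, beyond 28 other baits, 2 of which were called with Nkx2-3 before Pax2 was reached. Gm20424 beside Tlx1 (1.54 Mb, 3 reads, 7.05, from its own bait) and Mxi1, a MAX-binding repressor (9.70 Mb, 4 reads, 5.09, from Nkx2-3), were the remaining promoters beyond 1 Mb. Fragments without a promoter name were called beside Pax2 (10 reads, 18.19, and 5 reads, 6.37), beside the Lbx1 fragment (7 reads, 12.51) and near Tlx1 (5 reads, 6.99). Within 1 Mb, AC138790.1, Hpse2 and U6.720 scored between 5.01 and 6.06.

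Nkx2-5, the regulator of cardiac progenitors on chromosome 17 (chr17:26977527-26984143), had 4 calls, all from its own bait and all to promoters within 663 kb. Gm20468 at 17.5 kb held 24 reads (11.80), AC144621.1 at 104 kb 10 reads (9.97), and Grm4, a glutamate receptor gene, at 663 kb 4 reads (6.39). None was a developmental regulator, and none was called from the other end. Among all mESC baits, 48.9% had at least 4 calls.

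Nkx3-2, a regulator of cartilage in the vertebrae and the jaw joint (chr5:42149379-42156826), had 11 calls, to 9 fragments. Msx1, a homeobox gene of the tooth and palate, lay 3.94 Mb away. The Msx1 promoter fragment held 6 reads and scored 7.91 from Nkx3-2 and 13.26 from Msx1. Another 4 fragments beside it were also called, so that 5 fragments over 14.1 kb held 5 to 7 reads each with scores of at least 7.23 from Nkx3-2, and the highest score of Nkx3-2, 13.50, belonged to a fragment in an exon of Msx1 3.94 Mb away. Rab28, a small GTPase gene 51.9 kb from Nkx3-2, held 34 reads (7.82 and 13.25). Rab28 and Msx1, 3884 kb apart, were called with each other as well.

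Nkx6-1, a regulator of pancreatic beta cells and of ventral neural progenitors (chr5:102086585-102095621), had the most calls of the members, 36, to 31 fragments, of which 17 lay beyond 1 Mb. Agpat9, an enzyme gene of glycerolipid synthesis, led at 815 kb with 35 reads and scores of 42.96 from Nkx6-1 and 57.64 from Agpat9. The heparanase gene Hpse at 943 kb held 20 reads (21.41 and 26.23). Neither belonged to a developmental class.

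Beyond 1 Mb the highest-scoring partners of Nkx6-1 lay at developmental regulators. Gsx2, a homeobox gene of the ventral forebrain, lay 26.6 Mb away with 7 reads and scored 19.05 from Nkx6-1 and 22.88 from Gsx2. The fragment beside it (4 reads, 7.34) and a fragment in Pdgfra exons, 26.5 Mb away (4 reads, 7.53), were called too. Prdm8, a transcription regulator of neurons, lay at 3.48 Mb with 10 reads (16.24 and 16.91). Around it 8 fragments over 32.9 kb were called, the highest of them a fragment in Prdm8 exons with 12 reads and a score of 26.25. The other 6 around the Prdm8 fragment held 5 to 7 reads and scored 5.94 to 11.45. A further 3 adjoining fragments 4.79 Mb away, without a promoter name, overlapped exons of Barhl2, a homeobox gene of retina and spinal cord. They held 10, 7 and 7 reads and scored 22.82, 13.06 and 12.97. Among the fragments named for a member, the longest pair joined Nkx6-1 with Pcdh7, a protocadherin gene, over 43.98 Mb (4 reads, 7.70 and 8.06). Between these 2 lay 199 other baits, of which 6 were called with Nkx6-1. Fgf5 at 3.41 Mb (5 reads, 5.57) and Gm10419 at 6.71 Mb (5 reads, 6.11) were called from their own baits only. So were Cds1 at 103 kb (10 reads, 5.90) and Fam175a at 842 kb (5 reads, 5.03).

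Nkx6-2, a regulator of oligodendrocytes and ventral neural progenitors near the end of chromosome 7 (chr7:146765942-146773439), had 6 calls with scores between 5 and 9. Pwwp2b at 337 kb held 12 reads (6.07 and 9), Tcerg1l at 1.18 Mb 7 reads (5.50, from Nkx6-2 only), and 9330101J02Rik at 103 kb 11 reads (5.33, from its own bait only). No partner was a developmental regulator, and 81.9% of mESC baits had a call that scored as high as its best from the Nkx6-2 bait, 6.07. The lowest score among all member calls, 5.00, was between Nkx6-2 and a fragment in Pwwp2b exons.

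**Figure D2:**
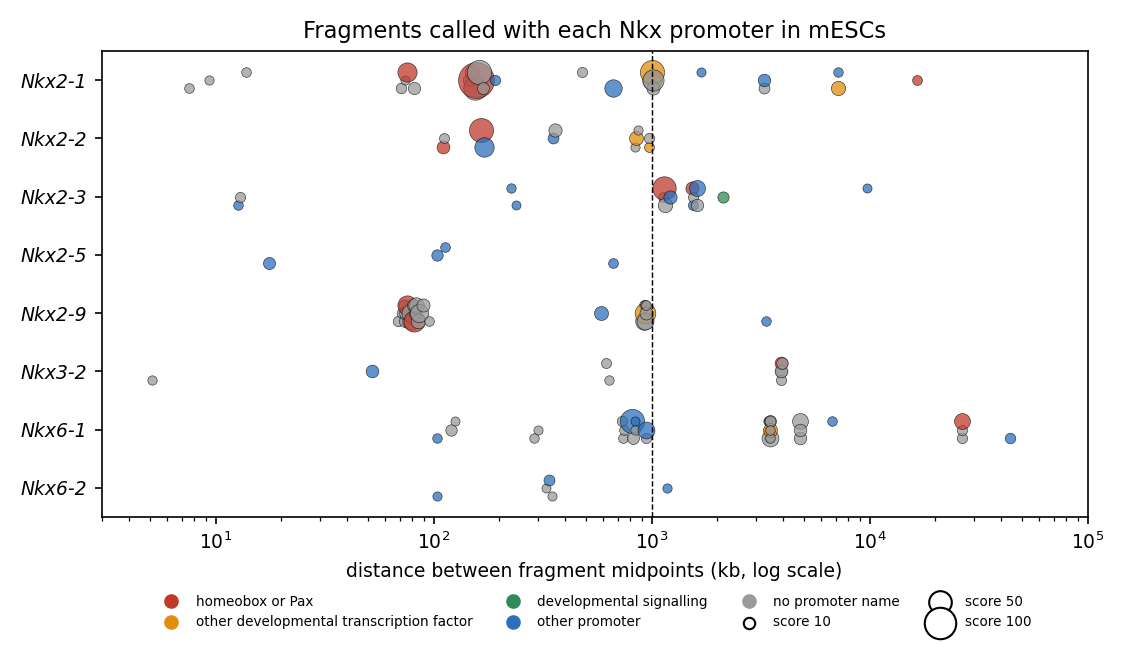
Each point is 1 fragment called with an Nkx promoter in mESCs, at its distance in kb (log scale), with an area that grows with the higher score of the pair and a colour for the class of the promoter it carries; points of a gene are staggered vertically only to separate them, and the dashed line marks 1 Mb. Nkx2-3, Nkx3-2 and Nkx6-1 have most of their partners beyond 1 Mb, up to 43.98 Mb, while all those of Nkx2-5 and of the bait named Nkx2-2 lie below it.

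Nkx1-2, expressed in the tail bud of the embryo, was the member without a call in mESCs. The fragment that holds its annotated start (chr7:139787097-139793689) carried the name Gm16764 in the list and had 21 calls. By far the strongest went to Hmx2, a homeobox gene of the inner ear, at 1092 kb, with 69 reads and scores of 77.35 from this fragment and 108.17 from Hmx2. The nearby Hmx3 at 1105 kb held 28 reads (28.22 and 41.39), and Bub3, a mitotic checkpoint gene beside them, 22 reads (18.93 and 31.45). Calls of this fragment were found by position, after the rule by symbol had given none, and are in none of the counts.

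Of the 118 calls from the 8 Nkx baits, 42 (35.6%, interval 27.5 to 44.6) went beyond 1 Mb, against 3.94% of all mESC calls. At least 1 such call was made from 6 of the 8 baits, all but Nkx2-2 and Nkx2-5, against 8.5% of all baits. The median cis distance was 779.7 kb against 139 kb, and the median number of calls per bait 12 against 3. No member call joined 2 chromosomes (0 of 154, which allows a share of up to 1.95%). Of all 101841 mESC calls, 579 did, a share below that limit, so the absence does not set the members apart. Reads fell with distance: from the Nkx baits, calls beyond 1 Mb held a median of 6.5 reads (4 to 30) and nearer calls a median of 17 (4 to 129). With calls of at least 10 reads only, the share beyond 1 Mb was 16.2% for the Nkx baits and 0.956% for all calls, and the median distances were 148 kb and 90.0 kb.

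An other end that carried a promoter name was present in 41 of the 118 calls (34.7%, 26.8 to 43.7), about the 36.3% of all mESC calls. All 8 Nkx baits had at least 1 such call, against 68.2% of all baits. A bait with more calls has more occasions for a call of any kind. The Nkx baits had a median of 12 calls against 3, and the part of this in the shares by bait was not tested. Which promoters were reached differed: 18 of the 41 (43.9%, 29.9 to 59.0) belonged to developmental transcription factor or signalling genes, against 5.71% of all calls between promoters, and 11 (26.8%, 15.7 to 41.9) to homeobox or Pax genes, against 2.82%. A developmental gene promoter was reached from 6 of the 8 Nkx genes, against 7.86% of all baits, and not by Nkx2-5 or Nkx6-2. These classes were drawn up with results of these data known, and are a description.

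Other families of developmental regulators gave shares of a similar size. The share beyond 1 Mb was 25.9% (20.2 to 32.7) for 8 Pax baits, 38.7% (31.8 to 46.2) for 11 LIM homeobox baits and 37.1% (26.2 to 49.5) for 3 Dlx baits. The share of developmental genes among promoter partners was 38.6% (25.7 to 53.4), 38.1% (25.0 to 53.2) and 31.8% (16.4 to 52.7) in the same order. All of these intervals overlapped those of the Nkx baits, and the Nkx and Pax families shared pairs, as they were called with each other.

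**Figure D3:**
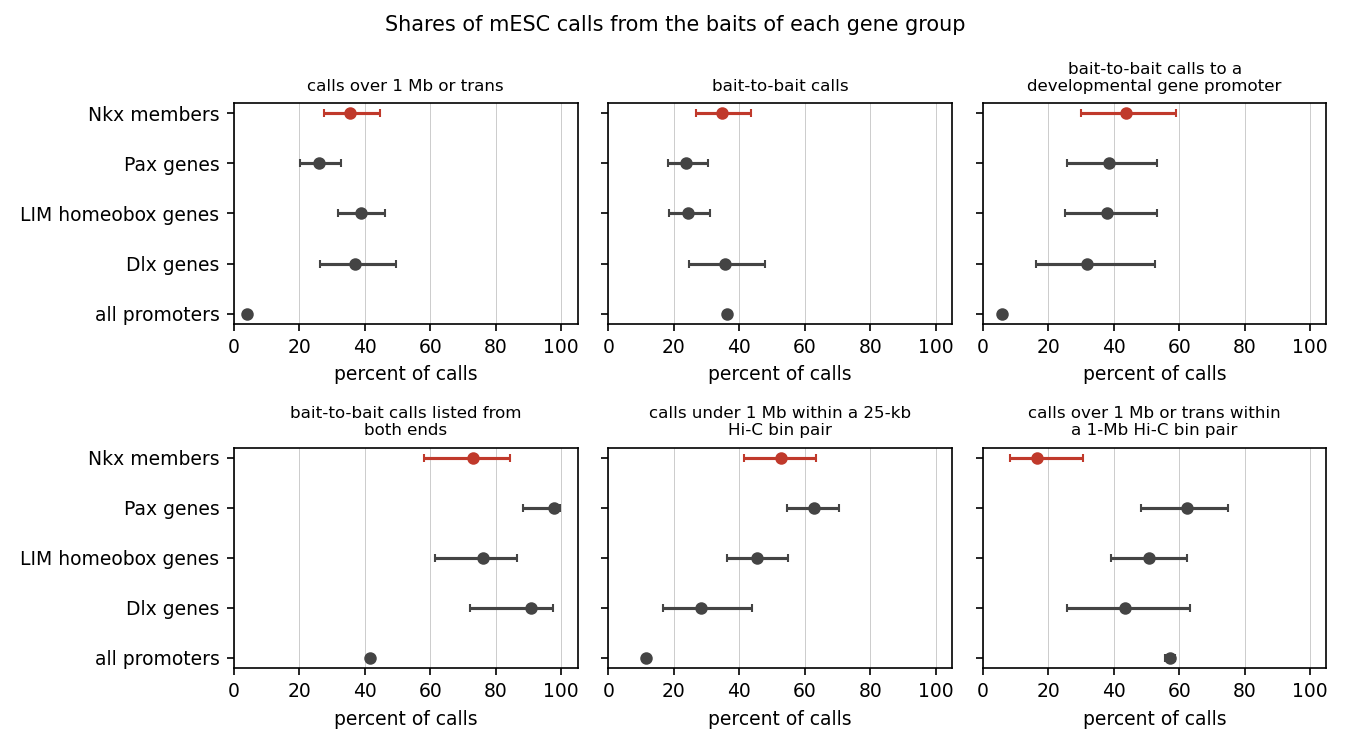
Shares of mESC calls, in percent, from the baits of the Nkx members (red), of other families and of all promoters (dark grey), with Wilson 95% intervals as bars, in 6 panels named above each. The Nkx baits lie far above all promoters for calls beyond 1 Mb (35.6% against 3.94%) and for developmental partners (43.9% against 5.71%). They lie among the other families for the first, above them with overlapping intervals for the second, and below every group in the last panel, the share in a 1-Mb Hi-C bin pair (16.7%).

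Of 48 promoter pairs with a member, 29 (60.4%) were called from both ends, against 26.2% of all 29320 promoter pairs in mESCs. Counted by calls from the bait to a promoter, 73.2% from Nkx baits were listed from both ends, against 41.6% of all. This share was higher in the other families, at 97.7% for Pax, 90.9% for Dlx and 76.2% for LIM homeobox baits. In the same 48, 11 were called from the Nkx bait only and 8 from the partner only. Of the 18 pairs with a developmental partner, 16 were called from both ends and 10 spanned more than 1 Mb. Both calls of a pair rest on the same reads, so they are not independent of each other. The higher score of a pair was a median of 1.29 times the lower, and at most 3.81 times, for Nkx2-1 with Pax9. Over all pairs called from both ends the median was 1.31.

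**Figure D4:**
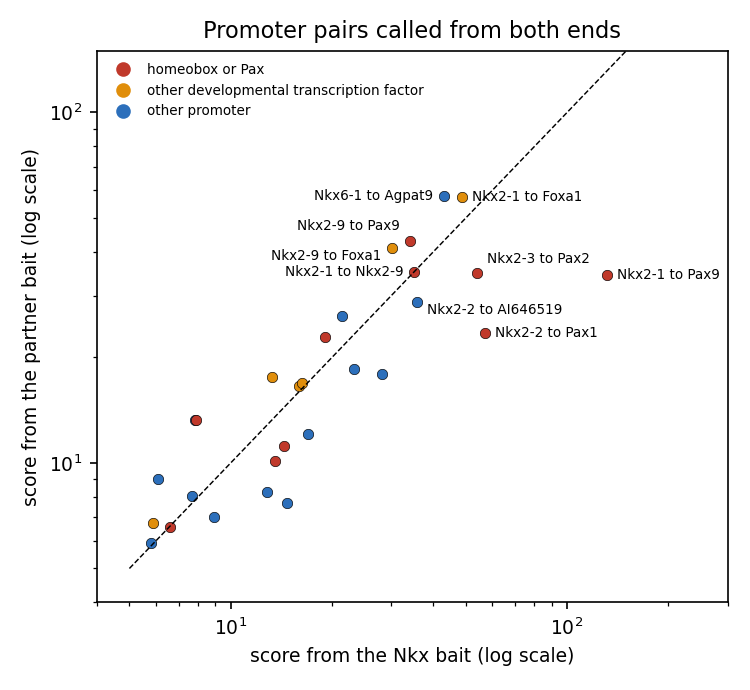
Scores of the 29 promoter pairs called from both ends, from the Nkx bait (horizontal, log scale) and from the partner's bait (vertical, log scale), coloured by the class of the partner, with the line of equal scores dashed. The pairs lie near the line, with 13 higher from the Nkx bait, 15 higher from the partner and 1 equal, and the Nkx2-1 pair with Pax9 (131.19 and 34.39) lies farthest from it.

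The partners of an Nkx promoter were in some loci also called with one another. For Nkx2-2, 13 of the 15 possible pairs among its 6 promoter partners were called, and for Nkx2-9 8 of 10. Pax9 and Foxa1, 850 kb apart, held 47 reads and scored up to 99.54, above any pair of either with an Nkx gene except Nkx2-1 with Pax9. The 2 pairs missing around Nkx2-2 were Foxa2 with Insm1 and Foxa2 with Gm14114, which lie on opposite sides of it.

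At Nkx2-3, 14 of 45 partner pairs were called, and these included all 10 among Pax2, 1700039E22Rik, Tlx1, the Lbx1 fragment and Fgf8. Pax2 with Tlx1 reached 80 reads and 74.68, above the 53.86 of Nkx2-3 with Pax2. The partners of Nkx6-1 were joined in only 2 of 36 pairs, 1 of them Agpat9 with Hpse (25 reads, 13.78). Its far partners Gsx2, Prdm8 and Pcdh7 were not called with each other or with Agpat9 or Hpse. Over all 8 genes 49 of 161 partner pairs (30.4%) were called, against 38.6% over every promoter fragment of the list with at least 2 promoter partners.

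By the overlap of partner fragments (Jaccard index, shared over all fragments of either gene, across mESC symbols), Nkx2-9 was most like Slc25a21 (0.545, 18 of 33), Pax9 (0.477) and Foxa1 (0.452). Nkx2-1 was most like Nkx2-9 (0.378), Foxa1 (0.353) and Slc25a21 (0.333). Nkx2-2 was closest to 6430503K07Rik (0.476), a bait 6.16 kb away that adjoins the fragment of the Nkx2-2 coding start. Nkx2-3 was closest to Gm20467 (0.290), a bait 7.18 kb away from which 15 of 19 calls went beyond 1 Mb. Nkx6-1 was nearest to Fgf5 (0.229) and Bmp3 (0.171), Nkx3-2 to Nsg1 (0.250), E130018O15Rik (0.208) and Shh (0.129), Nkx2-5 to Phf1 (0.286) and Nkx6-2 to Gpr123 (0.125). The last 3 rest on 1 to 5 shared fragments.

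Of 57 other baits within 500 kb of a member, 11 (19.3%) had a call beyond 1 Mb, against 6 of the 8 Nkx baits and 8.5% of all baits. Their median number of calls was 3, equal to that of all baits, but the loci differed. Around Nkx2-2, 7 neighbours had a median of 16 calls, against 11 from the Nkx2-2 bait. Among these 7 was 6430503K07Rik, which adjoins the fragment of the Nkx2-2 coding start and had 20 calls, 1 of them beyond 1 Mb. A call beyond 1 Mb was made from 3 of the 7 neighbours, and from the bait named Nkx2-2 there was none. Around Nkx2-5 and around Nkx6-2, 14 neighbours had a median of 2 calls, and 1 at each locus had a call beyond 1 Mb. Pax9, between Nkx2-9 and Foxa1, was the richest, with 40 calls. Around Nkx6-1 only 3 neighbours were listed, with 2 to 8 calls, against 27 from the Nkx6-1 bait.

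The remaining Nkx genes gave a mixed picture. Nkx2-4, on the far side of the Nkx2-2 locus, had 23 calls, the highest to the fragment of the Nkx2-2 coding start (26.96). Nkx1-1 had 10 calls, led by E130018O15Rik, whose fragment holds the start of the homeobox gene Hmx1, at 1.96 Mb (17 reads, 31.96 and 21.02). Nkx6-3 had 16 calls, all below 1 Mb and none above a score of 11.51, and Nkx2-6 had none. Of 19 other genes of neural tube patterning, a list of mainly ventral genes that also holds the dorsal Pax3 and Pax7, 18 were listed with 2 to 56 calls (median 17.5, against 4 over all symbols). Of these 18, 2 were called with a member, Foxa1 and Foxa2. For scale, the members had 45 promoter partner fragments in all, where the list names 17014 symbols. As no member call joined 2 chromosomes, genes on chromosomes without a member had no such pair.

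The contacts were also set beside Hi-C material of mESCs taken before capture, which may not be an independent sample of the cells. Of 76 calls below 1 Mb from Nkx baits, 40 (52.6%, 41.6 to 63.5) lay in a pair of 25-kb bins with a false discovery rate under 0.05, against 11.6% of all mESC calls below 1 Mb. The share was 62.8% (54.4 to 70.4) for Pax, 45.3% (36.1 to 54.8) for LIM homeobox and 28.2% (16.5 to 43.8) for Dlx baits. The pairs in such bins were all at Nkx2-1 (11 of 16 fragment pairs), Nkx2-9 (20 of 24) and Nkx2-2 (9 of 11). For Nkx2-3, Nkx2-5, Nkx3-2, Nkx6-1 and Nkx6-2 no pair did.

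The bins of Nkx2-1 and Pax9 held 133 Hi-C read pairs against 11.0 expected, and those of Nkx2-2 and Pax1 101 against 10.4. For Nkx2-2 and Insm1, near the upper end of the distance range, 29 were counted against 1.13 expected. Nkx2-1 and Nkx2-9 held 58 against 17.8. Nkx2-9 and Foxa1 held 16 against 1.46. The Nkx6-1 pair with Agpat9 at 815 kb, the highest-scoring of that gene (42.96 and 57.64), was not in an enriched bin pair.

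Beyond 1 Mb the order was turned. Of 42 calls from Nkx baits, 7 (16.7%, 8.32 to 30.6) lay in an enriched pair of 1-Mb bins, against 57.2% of all mESC calls beyond 1 Mb or between chromosomes, 62.5% (48.4 to 74.8) for Pax, 50.7% (39.1 to 62.3) for LIM homeobox and 43.5% (25.6 to 63.2) for Dlx baits. At 1 to 2 Mb it was 4 of 14 (28.6%, 11.7 to 54.6) against 50.3%, at 2 to 10 Mb 3 of 23 (13.0%, 4.54 to 32.1) against 60.0%, and beyond 10 Mb 0 of 5 (upper limit 43.4%) against 81.8%. In the nearest band the interval held the value of all calls, and in the others it did not. Those inside included Foxa1 with its neighbouring fragments for Nkx2-1 and Mxi1 for Nkx2-3. The bins of Nkx2-3 and Mxi1 held 212 read pairs against 134 expected. None of the calls of Nkx6-1 or Nkx3-2 beyond 1 Mb lay in such bins, Gsx2 and Msx1 included. Such a bin pools many fragments, and its part in this difference was not tested.

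In GM12878, 6 of the 9 symbols were listed, with 31 calls, all below 1 Mb and none to a developmental gene promoter. NKX6-1 had 12 calls, NKX2-3 11, NKX2-1 4, NKX3-2 2, NKX1-2 1 and NKX2-5 1. NKX2-2, NKX2-9 and NKX6-2 had none, and NKX2-8, which is regarded as the human counterpart of mouse Nkx2-9, had 3. The highest score was 12.63, for NKX2-1 with RNU7-93P at 112 kb (11 reads). A score of at least 10 was reached by 2 of the 31 NKX calls, where 16.3% of all GM12878 calls did, and by 78 of the 154 Nkx calls in mESCs, where 16.9% of all did. From the NKX baits 0 of 22 calls went beyond 1 Mb (Wilson upper limit 14.9%), where 1.95% of all GM12878 calls did, and 2 of 22 (9.09%, 2.53 to 27.8) reached a promoter, where 29.2% of all calls did. By bait, 0 of 5 had a call beyond 1 Mb (3.77% of all GM12878 baits), 2 of 5 one to a promoter (61%) and 0 of 5 one to a developmental gene promoter (3.35%, and 2.25% of all calls between promoters).

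NKX6-1 in GM12878 was called with 11 fragments without a promoter name between 451 and 854 kb away, each with 8 to 11 reads and a score between 5.19 and 7.93. NKX2-3 was called with CNNM1 (16 reads, 7.53), ENTPD7 (15 reads, 8.24), CHUK (5 reads, 6.48) and 3 other promoters within 692 kb, and with none of PAX2, TLX1 or FGF8. NKX2-5 was called with the RPL26L1 promoter at 276 kb (14 reads, 11.45).

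Of the 48 promoter pairs of mESCs, 16 had both symbols in the GM12878 list, and 1 of them was called there. This was NKX3-2 with RAB28, 63.9 kb apart in human and 51.9 kb in mouse, with 17 reads and a score of 9.27 in GM12878. None of the 7 pairs with a developmental partner was called. The matching share over all mESC promoter pairs was not computed, so these counts cannot set the members apart. PAX9, FOXA1, PAX2, PRDM8 and NPAS3 had no GM12878 call, while FGF8 had 32 calls, none of them longer than 780.5 kb. NKX1-2 was called with LHPP, 13.0 kb away (21 reads, 9.33), and in mESCs the fragment of the Nkx1-2 start was called from Lhpp at 10.7 kb (100 reads, 7.42). Species, cell type, baits, promoter names and depth differ between the lists together, so which of them goes with the difference cannot be told apart.

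**Figure D5:**
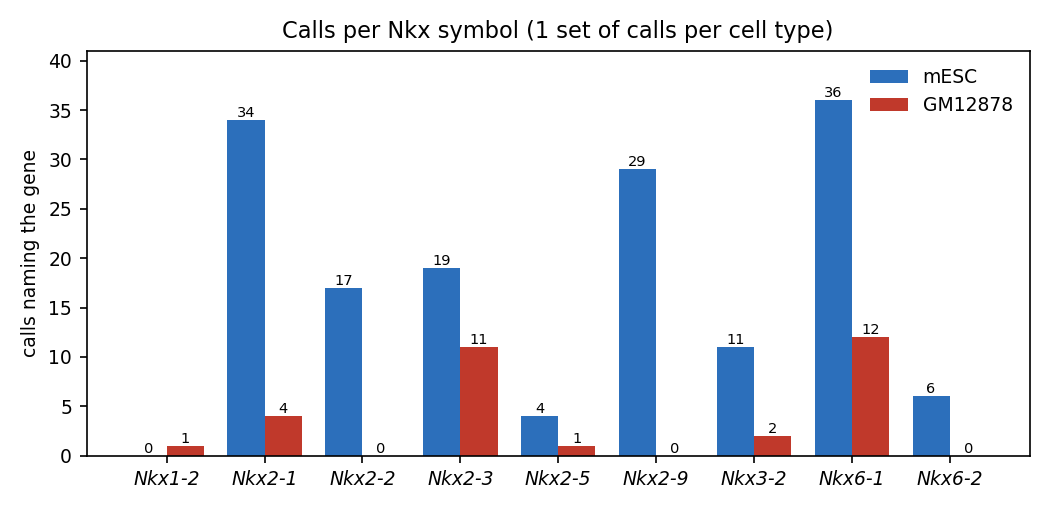
Number of calls that name each Nkx symbol in mESCs (blue) and in GM12878 (red), from 1 set of calls per cell type, so without error bars. Nkx6-1 (36 and 12), Nkx2-1 (34 and 4) and Nkx2-9 (29 and 0) have the most calls in mESCs, and Nkx1-2 alone has more in GM12878 (1 against 0). The counts follow the names: the fragment of the mouse Nkx1-2 start is named Gm16764 and had 21 calls. NKX2-8, regarded as the human counterpart of Nkx2-9, had 3 calls in GM12878.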

How the data were processed

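Promoter capture Hi-C, in which HindIII Hi-C ligation products are enriched for annotated promoters by hybridisation, was done on 3 GM12878 and 2 mESC replicates, and Hi-C without capture on 1 mESC library. The authors aligned reads to hg19 or mm9 with HiCUP (Bowtie 1.1.0 per the labels) and called all replicates of a cell type together with CHiCAGO 1.0.1, keeping scores of at least 5. The deposited read column holds whole numbers that the authors made as a scaled mean over replicates, so it was treated as a score and not as counts, and the deposited CHiCAGO score was used as given. For Hi-C, HOMER 4.7 gave the deposited read counts, the signal expected from coverage and distance, and false discovery rates (p-value based) per pair of 25-kb bins below 1 Mb and of 1-Mb bins otherwise, and pairs with a rate under 0.05 were kept. Library totals were not computed from these call lists, and the depth behind a call is given as its reads.

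Promoter names were split at semicolons, bars and commas, and the transcript suffix was removed. Splitting at semicolons alone would miss mouse fragments named for several transcripts. An other end counted as a promoter when it carried a name. A call was in a Hi-C bin pair when both fragment midpoints were. Shares were computed over calls from Nkx baits, since a call to an Nkx promoter from another bait joins promoters by construction. Distances run between fragment midpoints. Classes of developmental genes were lists of symbols. Named were all members, each promoter partner, the 5 highest-scoring with reads and score, each call over 1 Mb, other Nkx genes and up to 3 symbols of highest Jaccard index. Some items that this rule names are not reported here. The members and lists were chosen with earlier results of these data known. Positions and sequences came from mm9 with GENCODE M1 annotation, and GM12878 genes from hg19. Scripts (Python 3.11.15, SciPy 1.17.1) were tested on simulated data.

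Alternatives were a score of at least 10, at least 10 reads, each pair once, the deposited browser list, other rules for promoters and bins, a false discovery rate under 0.01, calls over 100 kb and, chosen after seeing the data, leaving out 1 bait.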

Additional observations from a re-analysis of the deposited data

How the results depend on the processing

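No paired analysis was possible because the calls of a cell type were made on all replicates together, so that no value per replicate, and no result without a replicate, could be had. Of 88 alternative values, 58 moved by less than their interval or by less than 1.5 times, and 30 moved further, all of them under a stricter score, a read minimum or the list that gives each pair once. The 58 include counts of 0 that a stricter setting cannot change, for Nkx1-2 in mESCs and for NKX2-2, NKX2-9 and NKX6-2 in GM12878. With a score of at least 10, the member calls fell from 154 to 78 in mESCs and from 31 to 2 in GM12878, the share in a 25-kb Hi-C bin pair was 77.8%, and the share of developmental genes among promoter partners 60.9%. With at least 10 reads, 90 and 19 calls were left, the share beyond 1 Mb was 16.2% and the median distance 148 kb, as 11 of the 42 calls beyond 1 Mb held 10 reads or more. Without the Nkx2-1, Nkx2-9 or Nkx6-1 bait in turn, chosen after seeing the data, the share beyond 1 Mb was 34.4%, 44.1% and 29.7%, and that of developmental partners 40.6%, 41.7% and 44.4%. The lowest scores kept were 5.00, 5.01 (U6.720 with Nkx2-3) and 5.03 (Fam175a with Nkx6-1), and values below the threshold were not analysed here.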
